A study of Mus musculus with 3 samples.

Results

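The genes described here are the RNA-binding regulators Lin28a, Lin28b, Trim71, Igf2bp1, Igf2bp2 and Igf2bp3 and the chromatin and DNA-binding factors Hmga1, Hmga2, Mycn and Arid3b. They were taken by name from the probe annotation of the arrays, and are 10 of 30397 genes and 18 of 39429 probes. They were selected on earlier log2 ratios between the conditions on these same arrays, so those ratios are given as a description and not tested. Embryoid bodies, clusters of mouse embryonic stem cells that differentiate once the cytokine LIF is withheld, were grown in suspension without LIF for 10 days. One condition carried Dido3deltaCT+HADido3CT, a Dido3 protein cut short at its C-terminus together with overexpression of the missing CT region of exon 16, and is called mutant+CT. The other was the wild-type control. Each condition had 3 biological replicates, and each of 3 arrays carried 1 mutant+CT and 1 wild-type RNA, with mutant+CT in Cy3 on replicates 1 and 3 and in Cy5 on replicate 2. No sample had the truncation alone or the construct alone, so their effects cannot be told apart. The dye swap and replicate 2 cannot be told apart either. The number of clones or lines behind the replicates is not given in the sources used here.

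Lin28a and Lin28b are RNA-binding proteins that block the maturation of let-7, a family of microRNAs that accumulates as cells differentiate and represses growth-promoting mRNAs. Lin28 proteins bind the loop of let-7 precursors and recruit enzymes that add uridines to the 3′ end, which marks the precursor for decay. Lin28b, Trim71, Igf2bp1, Igf2bp2, Igf2bp3, Hmga1, Hmga2, Mycn and Arid3b have all been described as let-7 targets, and most are high in the embryo and low in adult tissue.

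The mature let-7 sequences below, from RefSeq (GRCm38.p6), are shown because the seed, bases 2 to 8 in capitals, is the part that pairs with target mRNAs. All 9 mature family members in that table shared 1 seed.
mmu-let-7a-5p: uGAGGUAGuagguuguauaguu
mmu-let-7d-5p: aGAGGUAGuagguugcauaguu
mmu-let-7g-5p: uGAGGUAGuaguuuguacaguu
mmu-miR-98-5p: uGAGGUAGuaaguuguauuguu

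The precursors are shown for the letters GGAG, the motif in their loop region that Lin28 proteins contact. GGAG, in capitals, stood between the arms of 8 of the 11 let-7 hairpins (72.7%), against 52 of 644 mouse hairpins (8.07%), searched on the RNA strand. Only hairpins in which both mature arms could be placed were counted. Mirlet7g (chr9:106178840-106178927, plus strand) and Mirlet7i (chr10:122985640-122985724, minus strand) held it. Mirlet7b (chr15:85707319-85707403, plus strand) did not hold these letters there. Coordinates are those of GRCm38.p6.
Mirlet7g: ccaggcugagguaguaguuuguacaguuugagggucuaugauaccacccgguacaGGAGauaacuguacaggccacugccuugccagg
Mirlet7i: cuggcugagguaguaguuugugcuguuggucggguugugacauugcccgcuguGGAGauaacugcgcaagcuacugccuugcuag
Mirlet7b: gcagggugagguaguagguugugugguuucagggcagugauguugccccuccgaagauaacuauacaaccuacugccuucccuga

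On the target side, the letters CTACCTC pair with the let-7 seed. A single one of the 18 probes held them, the 3′ probe of Hmga2, and its bases 30 to 59 are printed with the match in capitals.
Hmga2, A_52_P300730: aatcaaaacacactaCTACCTCttaagtcc
Of the 26318 probes kept for analysis, 115 held the same letters (0.437%), and their median log2 ratio was -0.05, against -0.01 for the probes without them. Only the probe sequences were searched, not the rest of each mRNA. An mRNA with a match elsewhere thus counts among those without, and nothing about let-7 can be read from these medians. No let-7 transcript was found by name on the array, so let-7 itself was not measured.

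Values are normalised log2 intensities for levels and log2 of mutant+CT over wild type for ratios. A level cannot be compared between probes. Probe positions are the mm9 coordinates of the array files. In bulk RNA, fewer cells of a type and less RNA per cell cannot be told apart. The share of spots well above background was 69.0% to 78.5% in mutant+CT channels and 68.1% to 76.4% in wild-type channels, and none was saturated. Dido1, which encodes Dido3, had 4 kept probes with mean ratios from -2.39 to 3.53, so no single ratio describes it. With limma, 0 of 20390 genes passed an adjusted p under 0.05 (percent called 0), and 3211 had an unadjusted p under 0.05 (15.7%).

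Of the 9 genes measured on every array, Trim71 and Igf2bp1 were at least 2-fold higher in mutant+CT on every array, as were 1.9% of all genes. Lin28b was at least 2-fold lower on every array, as were 0.991% of all genes. Lin28a also lay above 0 and Igf2bp3 below 0 on every array, where 20.3% of all genes were higher and 17.4% lower. The other 4 had mixed signs. The median over all 10 genes, with Mycn from 2 arrays, was -0.01, against -0.00 for all genes on the arrays. By probe, 3 of the 16 kept were at least 2-fold higher on every array (2.04% of all kept probes) and 1 was at least 2-fold lower (0.984%). In all, 4 of the 16 were higher on every array (20.4%) and 4 lower (18.1%). Nothing is read from these counts, since the genes were selected on the same ratios.

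**Figure D1:**
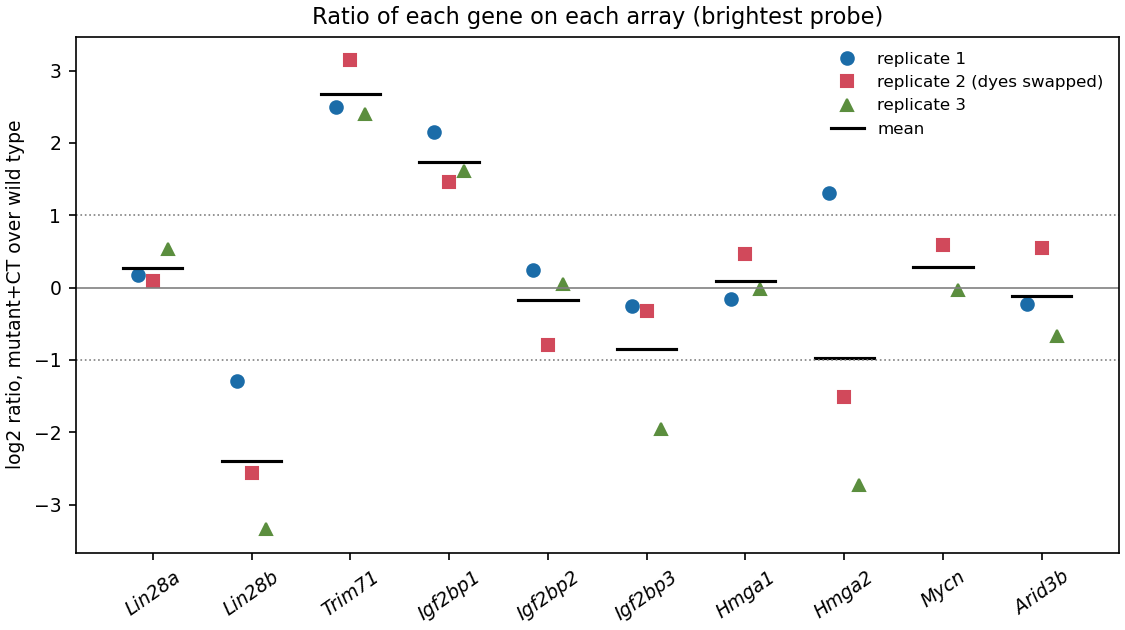
Log2 ratio of mutant+CT over wild type (vertical axis) of the brightest kept probe of each gene on the 3 arrays; bars are means and dotted lines mark 2-fold. Trim71 and Igf2bp1 lie above 1 and Lin28b below -1 on every array, while the points of Hmga2 run from -2.73 to 1.31.

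The Lin28 paralogs, the upstream regulators of let-7, had mean ratios of opposite sign. Lin28a, which is abundant in embryonic stem cells, had levels of 14.29, 14.11 and 14.12 in mutant+CT on replicates 1 to 3 and of 14.12, 14.02 and 13.58 in wild type (probe A_55_P2074371, chr4:133559245-133559304, minus strand). All 6 channels were bright, and the ranges of the groups overlapped. Its ratios were 0.17, 0.09 and 0.54, a mean of 0.27 ± 0.24 (SD, n = 3).

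Lin28b was lower in mutant+CT at its brighter probe. Levels at the 3′ probe A_55_P1970905 (chr10:45096468-45096527, minus strand) were 11.24, 8.60 and 9.18 in mutant+CT and 12.54, 11.17 and 12.52 in wild type. Mutant+CT was the lower channel of each array, but its replicate 1 lay slightly above the wild type of replicate 2. The ratios were -1.29, -2.57 and -3.34, a mean of -2.40 ± 1.03 (SD, n = 3) or 5.28-fold lower.

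The other Lin28b probe, A_52_P532355, lies 43944 bases upstream in the genome (chr10:45140412-45140471, minus strand) and reads through in 1 frame without a stop codon. Its sequence is shown because the ratio differs from that of the 3′ probe.
Lin28b, A_52_P532355: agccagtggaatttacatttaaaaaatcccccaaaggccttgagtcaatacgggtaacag
Levels there were 7.90, 6.19 and 6.48 in mutant+CT and 7.44, 6.68 and 7.43 in wild type. The probe was dim: on 2 of 3 arrays it stood clearly above background in mutant+CT, against 3 of 3 in wild type. Its ratios of 0.45, -0.49 and -0.94 averaged -0.33 ± 0.71 (SD, n = 3), and the groups overlapped. The mean over both probes was -1.36, which leaves Lin28b outside the 2-fold count.

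Trim71 encodes an RNA-binding ubiquitin ligase of the TRIM-NHL family that represses target mRNAs in stem cells. At probe A_55_P1962334 (chr9:114420415-114420474, minus strand) its levels were 14.32, 14.71 and 14.43 in mutant+CT and 11.82, 11.57 and 12.04 in wild type. The groups did not overlap, and the gap between them was wider than the range within either. The ratios were 2.50, 3.14 and 2.40, a mean of 2.68 ± 0.40 (SD, n = 3) or 6.41-fold higher. This mean exceeded that of 99.6% of the genes.

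The other Trim71 probe, 1254 bases upstream (A_55_P2084348, chr9:114421669-114421728, minus strand), had levels of 9.92, 9.46 and 9.18 in mutant+CT, against 7.12, 7.20 and 6.72 in wild type. Here too no channel of one group reached the other. Ratios of 2.80, 2.26 and 2.46 gave a mean of 2.51 ± 0.27 (SD, n = 3). Wild type was dim at this probe, with raw intensities of 93.4, 160 and 108, though well above background on 3 of 3 arrays. The size of the ratio at this probe is therefore uncertain. The probes differed by -0.17 ± 0.62 (5′ minus 3′, SD, n = 3), less than their spread.

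**Figure D2:**
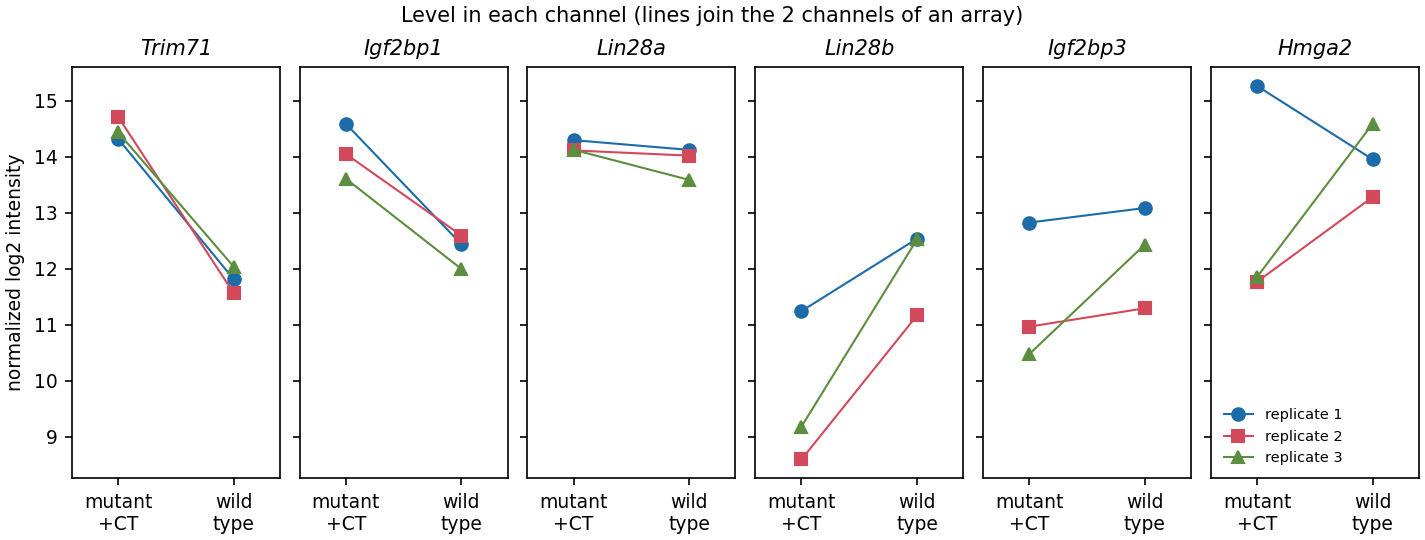
Normalised log2 intensity (vertical axis) of 6 genes in the mutant+CT channel (left of each panel) and the wild-type channel (right), with a line joining the channels of each array. Mutant+CT is the higher point of every line for Trim71, Igf2bp1 and Lin28a and the lower one for Lin28b and Igf2bp3, and the lines of Hmga2 cross.

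The Igf2bp proteins bind mRNAs, stabilise them and control their transport and translation, and the 3 paralogs had different ratios. Igf2bp1 had levels of 14.58, 14.05 and 13.61 in mutant+CT and 12.44, 12.59 and 12.00 in wild type (probe A_51_P497113, chr11:95824526-95824585, minus strand). The lowest mutant+CT channel stood above the highest wild-type channel. The ratios of 2.15, 1.45 and 1.61 averaged 1.74 ± 0.36 (SD, n = 3), or 3.34-fold higher.

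Igf2bp2 was bright in both groups, at 13.64, 12.53 and 12.17 in mutant+CT and 13.40, 13.32 and 12.13 in wild type (probe A_51_P315682, chr16:22059260-22059319, minus strand). The groups overlapped throughout. Its ratios of 0.24, -0.80 and 0.04 averaged -0.17 ± 0.55 (SD, n = 3), and a neighbouring probe averaged -0.16 ± 0.32.

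Igf2bp3 had levels of 12.82, 10.97 and 10.48 in mutant+CT and 13.08, 11.30 and 12.43 in wild type (probe A_52_P508974, chr6:49035710-49035769, minus strand). Replicates differed by more than the groups, and the ranges overlapped. The ratios were -0.26, -0.33 and -1.95, a mean of -0.85 ± 0.96 (SD, n = 3), most of which came from replicate 3.

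Hmga2, an architectural chromatin protein and the best known let-7 target, had the largest SD of the ratios among the 10 genes. Levels at the 3′ probe A_52_P300730 (chr10:119798739-119798798, minus strand), which holds the printed let-7 match, were 15.26, 11.77 and 11.85 in mutant+CT and 13.95, 13.28 and 14.58 in wild type. Mutant+CT was the brighter channel on replicate 1 and the dimmer on replicates 2 and 3. The ratios of 1.31, -1.51 and -2.73 averaged -0.98 ± 2.07 (SD, n = 3). Without replicate 1 the mean was -2.12, and without replicate 3 it was -0.10.

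The 5′ probe of Hmga2, 1882 bases away (A_55_P2043921, chr10:119800621-119800680, minus strand), had levels of 12.16, 8.43 and 8.63 in mutant+CT and 9.34, 8.20 and 9.54 in wild type. The same replicate 1 stood out in mutant+CT. Its ratios of 2.82, 0.23 and -0.91 averaged 0.71 ± 1.91 (SD, n = 3). Both probes ordered the replicates alike, and the 5′ ratio exceeded the 3′ ratio by 1.51, 1.74 and 1.83, a mean of 1.69 ± 0.16 (SD, n = 3).

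The corresponding gap between the Lin28b probes was 1.74, 2.08 and 2.40, a mean of 2.07 ± 0.33 (SD, n = 3). It rests on the dim 5′ probe, above background in mutant+CT on 2 of 3 arrays, so its size is uncertain. Among the 4815 genes with several kept probes, the median spread between mean ratios of probes of a gene was 0.31, and 242 (5.03%) exceeded 1.5. A match to transcript ends or exons was not made for these probes, and the source of the gaps was not tested.

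**Figure D3:**
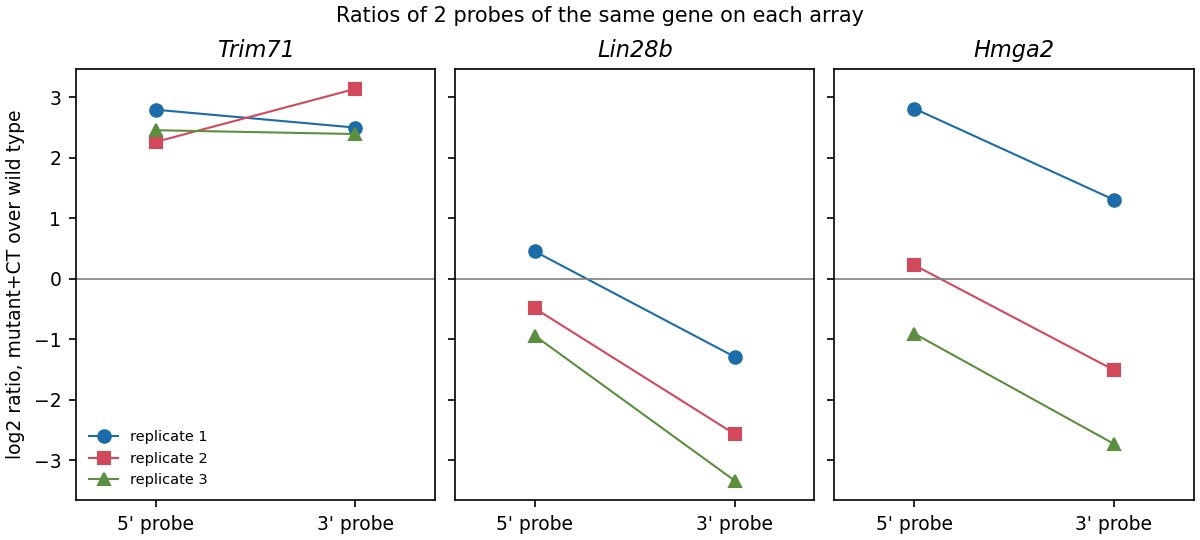
Log2 ratio of mutant+CT over wild type (vertical axis) at the 5′ and the 3′ probe of Trim71, Lin28b and Hmga2, with a line per array. For Lin28b and Hmga2 the 3′ ratio is lower on every array, by 2.07 and 1.69 on average, and for Trim71 both probes lie above 2.

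Hmga1, the other architectural chromatin protein, was bright at 15.06, 15.35 and 15.20 in mutant+CT and 15.21, 14.89 and 15.22 in wild type (probe A_51_P483118, chr17:27700543-27700602, plus strand). The groups overlapped, with ratios of -0.15, 0.46 and -0.02 and a mean of 0.10 ± 0.32 (SD, n = 3). A second probe for transcript variant 14 (A_55_P2076057) had ratios of -1.21, 0.06 and -1.01, a mean of -0.72 ± 0.68, and the mean over both probes turned to -0.31. The remaining probe, for variant 6, was well above background on 1 of 3 arrays in each group and was not kept. Mouse has a near-identical gene, Hmga1b, so the signal of Hmga1 may hold RNA of both.

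Mycn, a MYC-family transcription factor, had its spot on replicate 1 marked as an outlier, so its ratio rests on replicates 2 and 3. The levels there were 13.41 and 13.56 in mutant+CT and 12.83 and 13.59 in wild type (probe A_52_P536494, chr12:12943193-12943252, minus strand). The ratios of 0.59 and -0.03 lay on both sides of 0, and Mycn is not among the genes tested. The authors' deposited table lists 0, 0.71 and -0.05 for this probe on the 3 arrays.

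Arid3b, an AT-rich DNA-binding protein, had levels of 11.46, 11.43 and 10.67 in mutant+CT and 11.69, 10.88 and 11.35 in wild type (probe A_51_P161554, chr9:57638549-57638608, minus strand). The ranges overlapped. Its ratios of -0.23, 0.55 and -0.67 averaged -0.12 ± 0.62 (SD, n = 3), and the dimmer probes averaged -0.14 ± 0.14 and -0.16 ± 0.10.

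Promoters are shown for Lin28b and Igf2bp3, which at their brightest probes were lower in mutant+CT on every array, and for Lin28a and Trim71, which were higher. Each is the 250 bases upstream of the gene start in RefSeq (GRCm38.p6), and 9 of the 10 genes matched that table, with 11 promoters. Igf2bp1, also higher on every array, had no entry there, so its promoter was not read. Capitals mark CACGTG (the E-box bound by MYC-family proteins), CCAAT or its reverse ATTGG, and GGGCGG or its reverse CCGCCC, searched on both strands.
Lin28b, chr10:45470202-45470451, minus strand: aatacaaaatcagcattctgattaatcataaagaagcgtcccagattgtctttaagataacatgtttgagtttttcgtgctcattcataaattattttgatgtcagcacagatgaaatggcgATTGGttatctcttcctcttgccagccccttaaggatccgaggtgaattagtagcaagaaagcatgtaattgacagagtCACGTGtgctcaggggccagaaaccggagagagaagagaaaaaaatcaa
Igf2bp3, chr6:49214955-49215204, minus strand: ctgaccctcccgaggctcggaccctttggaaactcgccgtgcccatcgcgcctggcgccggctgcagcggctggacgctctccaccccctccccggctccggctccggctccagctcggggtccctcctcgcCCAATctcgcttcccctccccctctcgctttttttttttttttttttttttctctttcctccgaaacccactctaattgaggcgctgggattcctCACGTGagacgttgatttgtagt
Lin28a, chr4:134018817-134019066, minus strand: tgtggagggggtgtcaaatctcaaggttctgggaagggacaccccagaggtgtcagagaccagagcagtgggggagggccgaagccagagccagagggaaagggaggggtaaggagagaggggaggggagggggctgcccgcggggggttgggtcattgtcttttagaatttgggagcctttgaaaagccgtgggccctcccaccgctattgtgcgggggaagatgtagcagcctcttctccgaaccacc
Trim71, chr9:114564370-114564619, minus strand: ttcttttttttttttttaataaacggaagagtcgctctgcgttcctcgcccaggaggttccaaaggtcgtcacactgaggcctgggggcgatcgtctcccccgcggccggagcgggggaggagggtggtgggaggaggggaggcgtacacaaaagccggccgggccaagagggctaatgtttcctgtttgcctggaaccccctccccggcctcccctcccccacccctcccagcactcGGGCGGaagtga
CACGTG was found in 2 of the 11 promoters, those of Lin28b and Igf2bp3, and in 6.02% of 32851 mouse promoters of the same length. CCAAT was found in 3 of 11 (33.8% of all) and GGGCGG in 7 of 11 (32.7% of all). Arid3b and Hmga1 each appear more than once among the 11. The Hmga1 promoters overlap and share GGGCGG matches, so the 11 are not independent. The Lin28a promoter held none of these letters. A match is a description of the letters and not a binding site.

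The machinery that makes and degrades let-7 gave 0 of 15 measured genes past limma's adjusted threshold. With 2 higher and 3 lower at an unadjusted p under 0.05, the share over all genes was 15.7%, both directions together. The median ratio of the list was -0.02. For this list and those below, 1.9% of all genes were at least 2-fold higher on every array and 0.991% lower. Ago2, the slicing Argonaute that loads microRNAs, was the only one of the list at least 2-fold apart on every array, with ratios of 2.36, 2.81 and 1.99 and a mean of 2.39 ± 0.41 (SD, n = 3; limma adjusted p = 0.0735). A dimmer Ago2 probe averaged -0.14 ± 0.33, so the ratios of the Ago2 probes differed. That probe had mean levels of 7.29 in mutant+CT and 7.43 in wild type, so its ratio is uncertain.

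Of 21 other described let-7 targets measured, 0 passed the adjusted threshold, and the median was -0.33. At an unadjusted p under 0.05, 1 was higher and 4 were lower (15.7% of all genes, both directions together). Igf1r, the receptor for insulin-like growth factors, was the only one at least 2-fold apart on every array, with ratios of -1.28, -1.54 and -2.19 and a mean of -1.67 ± 0.47 (SD, n = 3; limma adjusted p = 0.0983). The medians of the list were -0.02, -0.11 and -0.58 on replicates 1 to 3.

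The 4 mRNAs known as targets of Trim71 had a median of 0.06, and 0 had an unadjusted p under 0.05 (15.7% of all genes). The largest mean among them was that of Rbl2, a pocket protein that restrains the cell cycle, at 0.37 ± 0.45 (SD, n = 3; limma adjusted p = 0.577). The mean of Rbl2 was within its spread between replicates. Cdkn1a, the cell cycle inhibitor p21 and another Trim71 target, gave different ratios at its 3 kept probes. The brightest averaged 0.11 ± 0.20, while the dimmer ones averaged 2.41 ± 0.61 and 1.42 ± 0.32 (SD, n = 3), so the median of the list depends on which probe stands for Cdkn1a.

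Among 10 measured relatives of the genes, 0 passed the adjusted threshold, and the median was -0.09. At an unadjusted p under 0.05, 1 was higher and 3 were lower (15.7% of all genes, both directions together). Trim2, a TRIM-NHL relative of Trim71, had ratios of 2.01, 2.34 and 1.59, a mean of 1.98 ± 0.38 (SD, n = 3; limma adjusted p = 0.0843), but another probe averaged -0.53 ± 0.18. Ybx1, a cold shock protein like the Lin28 pair, had ratios of -1.41, -1.59 and -1.28, a mean of -1.43 ± 0.16 (limma adjusted p = 0.0941). Its other probes averaged 0.09 ± 0.49 and 0.94 ± 1.57.

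Of 11 oncofetal and fetal growth genes, 0 passed the adjusted threshold, and the median was -0.06. At an unadjusted p under 0.05, 5 were higher and 1 was lower (15.7% of all genes, both directions together). Cdkn1c, an imprinted inhibitor of cell division, was the only one at least 2-fold apart on every array, at -2.22, -2.25 and -3.41, a mean of -2.62 ± 0.68 (SD, n = 3; limma adjusted p = 0.0843). Igf2, the growth factor whose mRNA gave the Igf2bp proteins their name, had ratios of 1.40, 0.24 and -2.30.

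**Figure D4:**
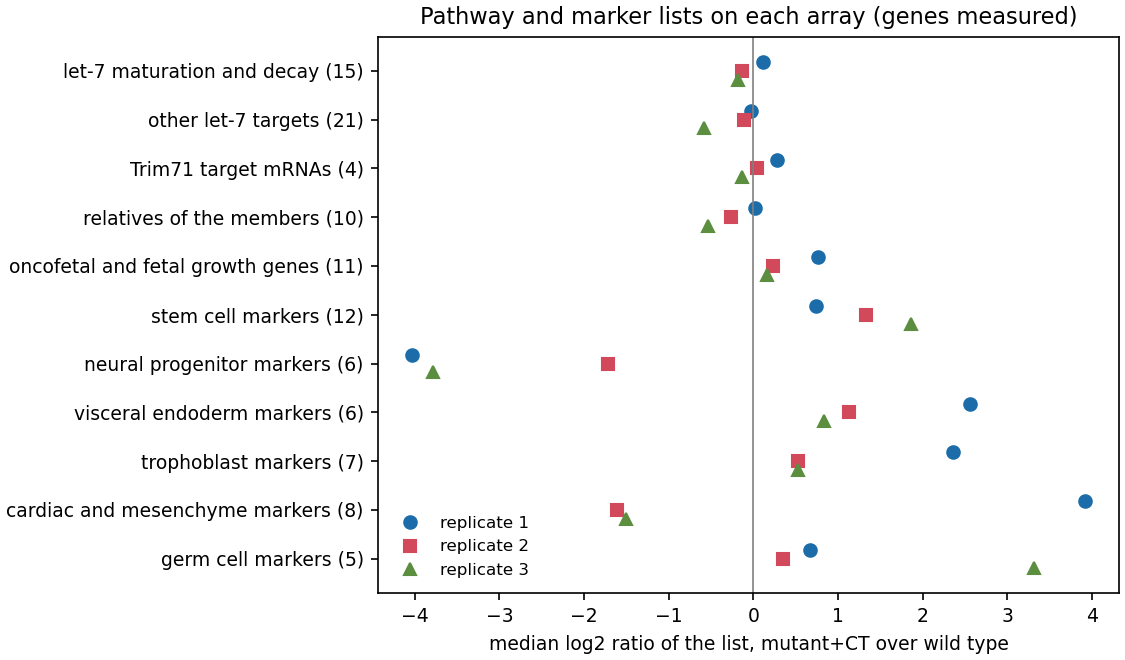
Median log2 ratio of mutant+CT over wild type (horizontal axis) of pathway and marker lists, with the number of measured genes in brackets and a point per array. The let-7 maturation and target lists lie between -0.58 and 0.11, neural progenitor markers lie below -1 on every array, and cardiac and mesenchyme markers stand at 3.92 on replicate 1 and below -1 on replicates 2 and 3.

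Markers of several cell types, listed to describe the makeup of the embryoid bodies, also had ratios away from 0. These lists were chosen with earlier results of the same data known, so they are not an independent check. Summed linear intensities of 12 stem cell markers were 165965 to 510055 in mutant+CT and 68393 to 135562 in wild type. Their median ratio was 1.27, and 3 were at least 2-fold higher on every array (1.9% of all genes). Of the 12, 9 lay above 0 on every array (20.3% of all genes), while Sox2, Nanog and Klf4 averaged 0.16, 0.09 and -0.68. All 6 visceral endoderm markers lay above 0 on every array, with sums of 64637 to 212523 in mutant+CT and 22989 to 92158 in wild type. Of 6 neural progenitor markers, 5 were at least 2-fold lower on every array (0.991% of all genes). The sums of these 6 markers were 1448 to 3825 in mutant+CT and 3159 to 35485 in wild type.

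The 7 trophoblast markers had sums of 18040 to 71861 in mutant+CT and 6777 to 9261 in wild type. Of these, 3 were at least 2-fold higher on every array (1.9% of all genes). Among the 3 was Prl4a1, which was well above background on 2 of 3 arrays in wild type and kept through mutant+CT. While 4 of the 7 lay above 0 on every array (20.3% of all genes), Elf5 averaged -0.05 and Hand1 -0.61. Of 5 germ cell markers, 0 were at least 2-fold higher on every array, and Nanos3 averaged -0.22. Their sums were 4544, 3946 and 14457 in mutant+CT on replicates 1 to 3, with replicate 3 far above the others, and 2172 to 3043 in wild type. The 8 cardiac and mesenchyme markers had medians of 3.92, -1.61 and -1.50, with sums of 6632 to 231888 in mutant+CT and 15792 to 27456 in wild type. Mutant+CT of replicate 1 was the sample with the high cardiac sum and also the sample with the highest Hmga2 level. At their brightest probes, Lin28a (14.29), Igf2bp1 (14.58) and Igf2bp2 (13.64) were highest in that sample too. Lin28b (11.24), Igf2bp3 (12.82) and Arid3b (11.46) were highest there among mutant+CT channels, but higher still in wild type of replicate 1. By contrast, Trim71 (14.32) and Hmga1 (15.06) were lowest in that sample among mutant+CT channels. Tpbpa, another trophoblast marker, had no kept probe. No other marker on these lists was below background on all 3 arrays of a group. The part of these markers in the levels of Trim71, Lin28b, Igf2bp1 and Hmga2 was not tested.

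Genes with the most similar ratios were ranked by the root mean square difference over the 3 arrays. For Trim71 they were Ppig (0.245), Pdpr (0.295) and the unnamed probe A_55_P2054098 (0.297), and for Lin28b they were Ntf3 (0.230), Defa-rs2 (0.257) and Gas1 (0.278). A single gene lay within 0.25 of each. For Lin28a, Car4 (0.0224), Mab21l4 (0.0290) and Ofd1 (0.0312) were nearest, and 1509 genes lay within 0.25, so its pattern was a common one.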

How the data were processed

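The deposited scanner files hold the intensity of each spot and of its local background in both dyes, per the file headers, with Agilent's processed intensity and a log10 ratio of red over green. The authors' deposited value table holds normalised log2 ratios, made with limma per the submitters' processing notes (version not given in the sources used here). It runs as mutant+CT over wild type, with medians of -0.02, 0.01 and -0.02 and correlations of 0.994, 0.996 and 0.998 with the ratios computed here; its exact normalisation is unknown.

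Intensities were processed with limma 3.58.1 and statmod 1.5.0 under R 4.3.3. The steps were normexp background correction (offset 50), loess within arrays with control spots at weight 0, outlier spots set to missing (454, 234 and 507) and ratios turned to mutant+CT over wild type. Levels are per channel after quantile normalisation of average intensity between arrays (Aquantile). A probe was kept when well above background on all 3 arrays in either group and measured on all 3, which left 26318 of 39429 probes. The brightest kept probe stood for each of 20390 genes. RefSeq accessions named 30708 of 43020 spots. The log2 ratios were tested with limma and Benjamini-Hochberg adjustment, and the scripts were tested on simulated data. The number of arrays limits the precision.

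The 10 genes and the lists were chosen with earlier results of these data known. Named are all 10 genes, the genes of each pathway list at least 2-fold apart on every array (otherwise the gene with the largest mean), and the 3 genes most similar to Lin28a, Lin28b and Trim71. Cdkn1a, Igf2, Dido1, Sox2, Nanog, Klf4, Elf5, Hand1, Prl4a1, Tpbpa and Nanos3 were named outside this rule, after their values were seen.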

Additional observations from a re-analysis of the deposited data

How the results depend on the processing

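The 0 genes called by limma became 286 with Agilent's processed signals, 12 with the background filter in both groups and 176 with a trended and robust variance prior. Leaving out 1 array gave 0 to 159, with 159 without replicate 1. No background subtraction, median centring, no filter, the mean of probes, the deposited table and a dye term gave 0. The number of genes that differed 2-fold or more on every array was 589, with 1201 from the processed signals and 774 to 1537 when 1 array was left out (1273 without replicate 1). Trim71 and Igf2bp1 stayed in that count under every alternative, and the number of the 10 genes in it ran from 2 with the mean of all probes, where Lin28b left it, to 4 without replicate 1, where Hmga2 joined. With the mean of all kept probes Hmga1 turned from 0.10 to -0.31, Lin28b was -1.36 and Hmga2 -0.13. Ratios smaller than their SD also changed sign: Arid3b was 0.05 with a dye term and 0.16 without replicate 3, and without replicate 2 Igf2bp2 was 0.14 and Hmga1 -0.08. Leaving out an array can only keep or raise the 2-fold counts, since fewer arrays have to pass the rule. The cause of the other changes was not tested. Dim signal limits the 5′ probe of Lin28b, the wild-type channel at the 5′ probe of Trim71 and the dimmer probes of Arid3b and Ago2.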
